A study of Mus musculus with 6 samples.

Results

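CTCF and the cohesin machinery are encoded by genes that sit in chromatin themselves, and the positions of 9 of those genes were followed in Hi-C data from mouse embryonic stem cells. The genes were Ctcf, Rad21, Smc3, Stag1, Nipbl, Mau2, Wapl, Pds5a and Pds5b, chosen by name, and all 9 were placed on mm10. Each gene was described by the subcompartment labels of the 50 kb bins within 250 kb of it and by the chromatin loops with an anchor within 50 kb of it. The 9 windows held 117 of the 47717 bins that carried a label in all 6 libraries, and were 9 of 20470 windows of autosomal protein-coding genes. Loops meeting the rule numbered 11 of 6013 in the Brg1KD list, 9 of 5475 in the Ino80KD list and 12 of 5903 in the control list.

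The cells were E14 embryonic stem cells of wild-type genotype, kept in serum with LIF and transfected with esiRNA, a pool of short interfering RNAs made by enzyme digestion. The Brg1KD libraries came from cells given esiRNA against Smarca4, which encodes BRG1, the ATPase of the esBAF remodeler. The Ino80KD libraries came from cells given esiRNA against Ino80, the ATPase of the INO80 remodeler, and the controls from cells given esiRNA against EGFP. Cells received 3.5 µg of esiRNA and were taken 48 h later, with 2 libraries a group. Replicate 1 of every group shared a batch, and so did replicate 2. Nothing in the labels says that replicates came from separate cultures, so p-values measure only the spread between these libraries. Read numbers are not in these files, which leaves the sequencing depth unknown, and cells that kept the targeted protein cannot be told apart from cells that lost it.

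CTCF binds DNA and stops cohesin, a ring of SMC proteins, as the ring extrudes chromatin into loops. The loops that result often end at CTCF sites, and they lie within a coarser division of the genome into active A and inactive B compartments. RAD21, SMC3 and STAG1 are parts of the ring, NIPBL and MAU2 load it and drive extrusion, WAPL releases it from DNA, and PDS5A and PDS5B bind it and assist both its release and its stable hold. The deposited files split A and B into 8 ranked subcompartments. A rank of 8 is A.1.1, the most active class, ranks 7, 6 and 5 are A.1.2, A.2.1 and A.2.2, and ranks 4 to 1 are B.1.1, B.1.2, B.2.1 and B.2.2. The window score is the mean rank of the bins in a window.

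The windows of both targeted genes, Smarca4 and Ino80, scored 8.00 in all 6 libraries, and Hi-C does not measure how far either transcript was reduced. The bodies of 6 of 6 embryonic stem cell marker genes averaged an A rank in every library, against 3 of 6 markers of fibroblasts and other differentiated cells, which describes position and not expression. The libraries held 5044 to 5234 segments with a median length of 350 kb. The p-values of the limma fit are poorly calibrated for ranks with few steps, since 2510 gene windows and 18941 bins had no residual spread. The 2 knockdown comparisons share their control libraries.

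The promoters that the findings below touch are given as the 250 bases before the start site, from RefSeq on GRCm38.p6. Pds5a is shown because its start site lies in a loop anchor that was listed for Brg1KD alone, and Smc3 because its window was the one called in a knockdown. Stag1 is shown because an anchor kept in every list lies close to the start site of the printed promoter. That start site lies inside the Stag1 span used here, to the right of the left end of the gene. Capitals mark matches, on either strand, to core letters of CTCF sites, of YY1 sites and of the GC box. The CTCF core was searched as AGAGGGC and as AGATGGC, and with a G in place of the A before the variable base, as AGGGGGC and as AGGTGGC. The YY1 core was searched as AAGATGG, which can overlap the second of those, and as AAAATGG. The GC box was searched as GGGCGG.
Pds5a chr5:65698237-65698486, minus strand: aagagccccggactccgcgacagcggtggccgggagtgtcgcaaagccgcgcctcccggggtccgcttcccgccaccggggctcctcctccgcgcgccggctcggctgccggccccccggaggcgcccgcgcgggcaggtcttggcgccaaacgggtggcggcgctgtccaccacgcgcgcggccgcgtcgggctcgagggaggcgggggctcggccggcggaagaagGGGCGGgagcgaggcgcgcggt
Stag1 chr9:100643198-100643447, plus strand: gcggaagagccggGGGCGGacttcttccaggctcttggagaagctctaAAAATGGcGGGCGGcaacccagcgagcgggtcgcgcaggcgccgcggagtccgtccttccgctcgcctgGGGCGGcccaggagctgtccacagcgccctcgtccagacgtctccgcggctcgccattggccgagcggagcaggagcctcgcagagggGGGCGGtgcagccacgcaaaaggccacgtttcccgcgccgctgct
Smc3 chr19:53600146-53600395, plus strand: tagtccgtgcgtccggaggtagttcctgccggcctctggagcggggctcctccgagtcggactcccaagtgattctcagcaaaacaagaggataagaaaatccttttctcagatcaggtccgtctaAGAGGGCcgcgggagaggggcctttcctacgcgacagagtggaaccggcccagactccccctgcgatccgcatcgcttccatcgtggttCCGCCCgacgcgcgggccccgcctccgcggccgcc
The Pds5a promoter was 80.4% G and C and held 1 GC box and neither of the other motifs. The Stag1 promoter held 4 GC boxes and 1 YY1 core, and the Smc3 promoter held 1 CTCF core and 1 GC box. The CTCF core letters occurred in 23.6% of 32851 mouse promoter windows of this length, the YY1 core letters in 8.40% and the GC box in 32.7%. Rad21 and Nipbl have no entry in the promoter table.

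Of the 9 genes, 8 lay wholly in the A compartment in every library, and the bins at the right end of Pds5b were B.1.1 in both Brg1KD libraries and in Ino80KD replicate 1. Of the 117 bins around the genes, 95 (81.2%) were A in every library, against 34.6% of all bins, and 52 (44.4%) were A.1.1 in every library, against 9.94% of all bins. The median control window score of the 9 genes was 7.17, and that of all gene windows was 6.33. Not all members lay above most genes. The control means of Stag1, Rad21 and Pds5b exceeded those of 30.1%, 30.9% and 39.3% of all gene windows, and the other members exceeded 61.3% or more. The windows of Mau2 and Pds5a were A.1.1 throughout, which 7.76% of all gene windows were. By control mean the order was Mau2 and Pds5a, Ctcf, Smc3, Nipbl, Wapl, Pds5b, Rad21 and Stag1. Over the 6 libraries the ranges of Ctcf and Smc3, of Nipbl and Wapl, and of Wapl and Pds5b did not overlap, while the other neighbours in this order overlapped.

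**Figure D1:**
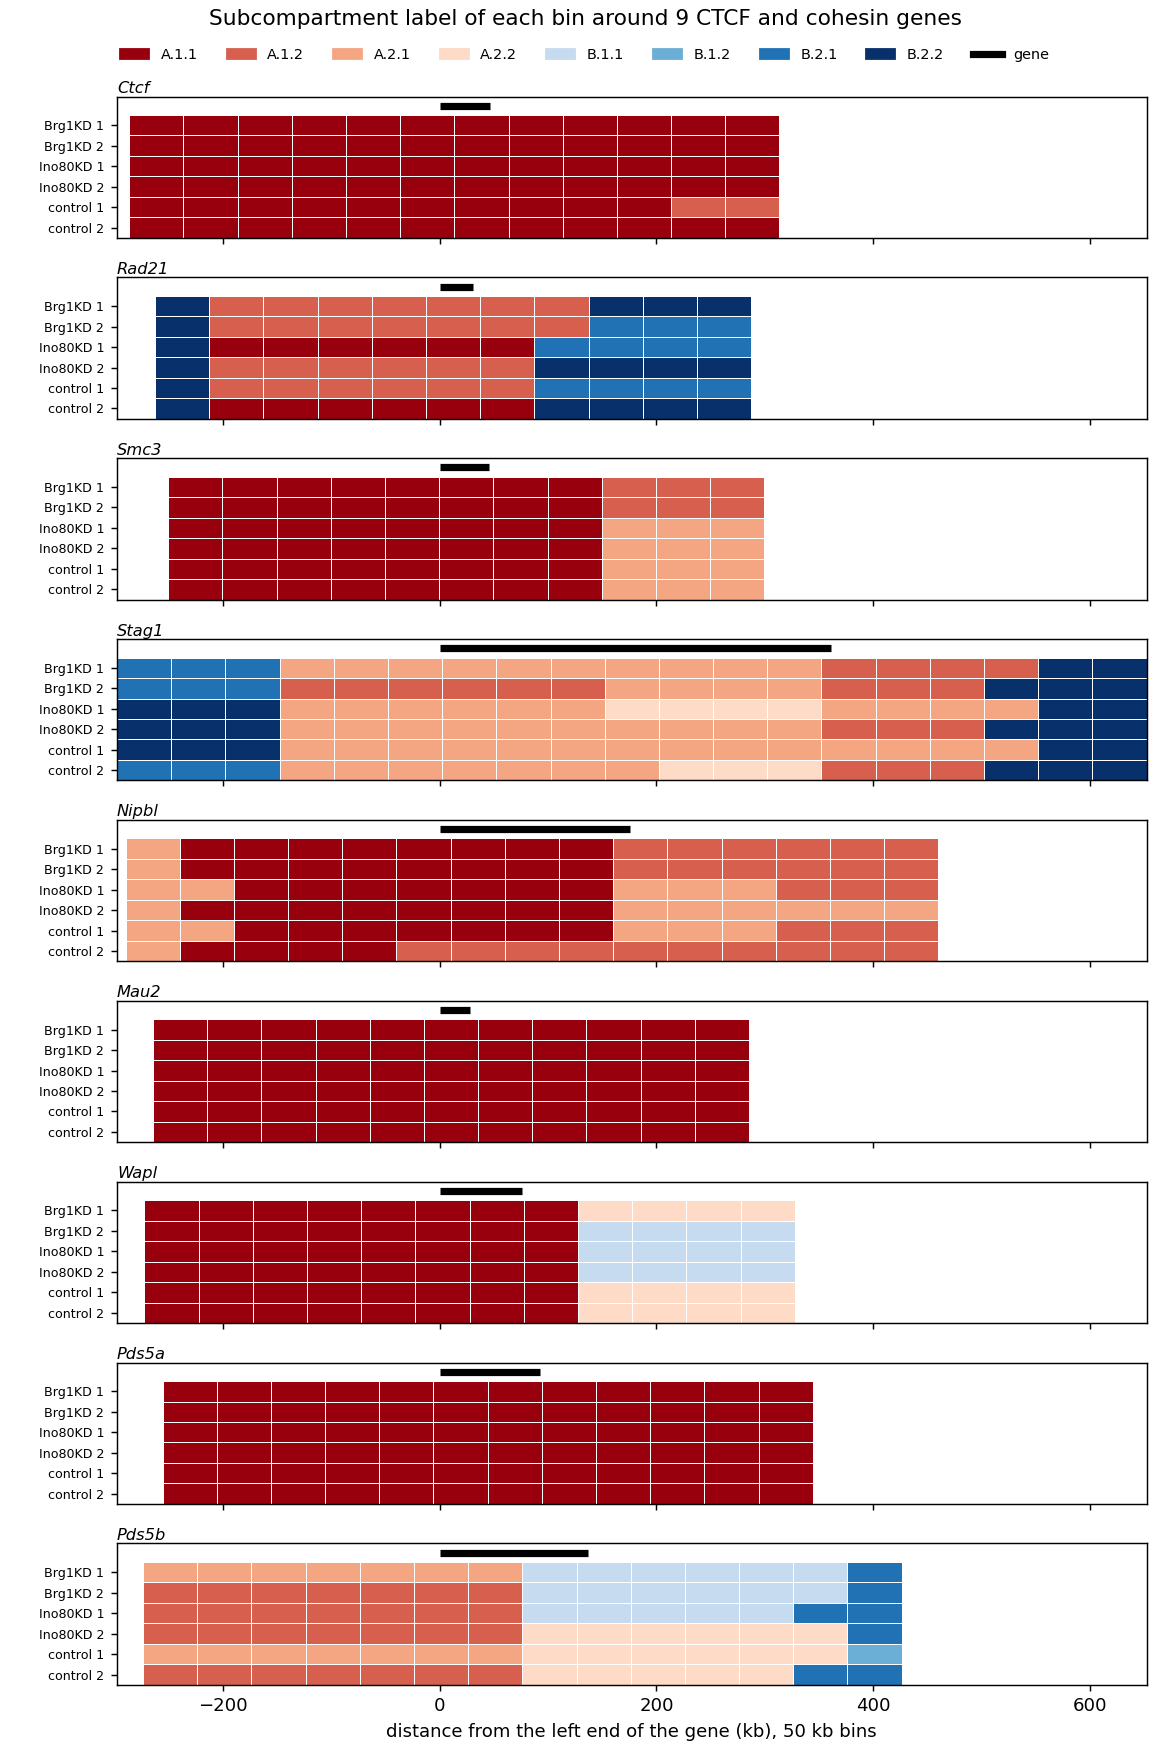
Each panel is the window of 1 gene, with 50 kb bins along the x axis (kb from the left end of the gene, black bar) and the 6 libraries as lines of tiles, Brg1KD at the top and control at the bottom; colour gives the subcompartment. Mau2 and Pds5a were A.1.1 in every tile, and the differences at Rad21, Smc3, Wapl and Pds5b lay in tiles to the right, towards the edge of an A domain or beyond it.

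Among the factor and the ring, Ctcf, on chr8:105636474-105682922, lay in a gene-dense stretch with 24 protein-coding genes in its window. Its window scored 8.00 and 8.00 in Brg1KD, 8.00 and 8.00 in Ino80KD, and 7.83 and 8.00 in control. Only replicate 1 of the control had bins below A.1.1, the 100 kb at chr8:105850001-105950000, and the groups overlapped. Both knockdowns differed from control by 0.0833 ranks (SE 0.0639, limma adjusted p = 0.721 for Brg1KD and 0.845 for Ino80KD). Without replicate 2 of the control the difference was 0.167 in both. That fit held 1 control library and no spread within groups, so a call made there cannot be read as a difference. With all 6 libraries and 1 common variance neither was called.

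Rad21, the subunit that closes the ring, lay on chr15:51962604-51993538 in a small A domain between B stretches, with 5 protein-coding genes in its window. Its window scored 4.82 and 5.09 in Brg1KD, 5.18 and 4.27 in Ino80KD, and 4.64 and 4.82 in control. The Ino80KD libraries were the furthest apart and spanned the other groups. The difference from control was 0.227 for Brg1KD (SE 0.364, adjusted p = 0.934) and 0 for Ino80KD (adjusted p = 1), so the window as a whole did not differ beyond its spread. At its right border the groups separated. The bin chr15:52050001-52100000, in which no protein-coding gene is placed, was A.1.2 in both Brg1KD libraries, B.2.1 and B.2.2 in Ino80KD, and B.2.1 and B.2.2 in control. The bin was 5.5 ranks higher in Brg1KD than in control (limma adjusted p = 0.0266, or 0.0430 with batch as a replicate block) and 5.5 ranks higher than in Ino80KD (adjusted p = 0.0325, or 0.0532 with the block). No library of Brg1KD overlapped either other group. Both calls were lost when any 1 of the 6 libraries was left out, with differences of 5 to 6 ranks and adjusted p from 0.0889 to 0.220. With 100 kb bins the difference was 2.5 ranks against each group and neither call was made (adjusted p = 0.110 against control and 0.133 against Ino80KD). With 1 common variance, which gives every bin the same spread, both calls were kept. The A domain around Rad21 was accordingly 350 kb long in both Brg1KD libraries and 300 kb in both Ino80KD and both control libraries, with the same left border. Within it Rad21, Eif3h, Utp23 and Aard were A.1.1 in Ino80KD replicate 1 and control replicate 2 and A.1.2 in the other libraries, a split that follows neither group nor batch.

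Smc3, which forms the ring's core with SMC1A, lay on chr19:53600396-53645831. Its window scored 7.73 and 7.73 in Brg1KD, 7.45 and 7.45 in Ino80KD, and 7.45 and 7.45 in control. Both Brg1KD libraries were above all others, and the gene itself was A.1.1 in every library. The window rose by 0.273 ranks against control (SE 0.0122, limma adjusted p = 0.00514) and was 0.273 ranks higher than in Ino80KD (adjusted p = 0.00732), in both batches alike. The whole difference lay in 1 stretch of 3 bins, chr19:53750001-53900000, over Rbm20 and Pdcd4, which was A.1.2 in both Brg1KD libraries and A.2.1 in the other 4. That stretch rose by 1 rank (limma adjusted p = 8.00e-08 against control and 9.78e-08 against Ino80KD). Libraries of the same group were identical at the window and at the stretch. The SE and these p-values therefore rest on spread that limma borrows from all windows or all bins, not on spread seen here. The window call was lost with batch as a replicate block (adjusted p = 0.0507 against control and 0.0737 against Ino80KD). With 1 common variance for all windows it was lost too (0.903 and 0.939), as was the call of the stretch (0.236 and 0.269). Within 100 kb of Smc3 the difference was 0, and within 500 kb it was 0.286 against control (adjusted p = 0.136) and 0.310 against Ino80KD (adjusted p = 0.199).

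Stag1, the ring subunit that contacts CTCF, is the longest of the 9 genes at chr9:100597709-100958544, in a domain flanked by B.2. Its window scored 5.05 and 5.05 in Brg1KD, 4.47 and 4.58 in Ino80KD, and 4.68 and 4.58 in control. Both Brg1KD values were above all others, but the difference of 0.421 from control (SE 0.0573, adjusted p = 0.0879) and that of 0.526 from Ino80KD (adjusted p = 0.0769) did not pass the threshold. The bins chr9:100300001-100450000 to the left were B.2.1 in both Brg1KD libraries, B.2.2 in both Ino80KD libraries, and B.2.2 and B.2.1 in control. At the right border, chr9:101100001-101150000 was A in replicate 1 of all 3 groups and B.2.2 in replicate 2 of all 3 groups. This was the 1 member bin of 117 (0.855%) that split by batch, against 1.67% of all bins.

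Of the loaders, Nipbl lay on chr15:8289824-8465315, and its window scored 7.47 and 7.47 in Brg1KD, 7.13 and 7.07 in Ino80KD, and 7.13 and 7.20 in control. Both Brg1KD values were above the rest, with a difference of 0.30 from control (SE 0.0375, adjusted p = 0.0752) and of 0.367 from Ino80KD (adjusted p = 0.0646), neither past the threshold. The bins chr15:8450001-8600000, which take in the right end of Nipbl, were A.1.2 in both Brg1KD libraries, A.2.1 in both Ino80KD libraries, and A.2.1 and A.1.2 in control. Mau2, on chr8:70014527-70042734 with 25 protein-coding genes in its window, scored 8.00 in every library and gave no difference to test.

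Of the release and maintenance factors, Pds5a, on chr5:65605719-65698236, also scored 8.00 in every library. Wapl, on chr14:34672379-34747983, was A.1.1 over its body in every library, and its window scored 7 and 6.67 in Brg1KD, 6.67 and 6.67 in Ino80KD, and 7 and 7 in control. Both Ino80KD values were below both control values, and Brg1KD overlapped each of the other groups. The difference from control was -0.333 for Ino80KD (SE 0.126, adjusted p = 0.809) and -0.167 for Brg1KD (adjusted p = 0.721). It lay in 1 stretch over Grid1, chr14:34800001-35000000, which was A.2.2 and B.1.1 in Brg1KD, B.1.1 in both Ino80KD libraries and A.2.2 in both controls. The A domain of Wapl ended there, and was 1100 and 900 kb long in Brg1KD, 900 kb in both Ino80KD libraries and 1100 kb in both controls. Only the Brg1KD libraries differed within their group here. Leaving out either of them removed all spread within groups, so calls made in those fits cannot be read as differences. Without Brg1KD replicate 1 the difference from control was -0.333 in both knockdowns. Without Brg1KD replicate 2 it stayed at -0.333 for Ino80KD, and Brg1KD was 0.333 above Ino80KD. With all 6 libraries and 1 common variance neither knockdown was called against control.

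Pds5b, on chr5:150673713-150810669, was the gene that the A/B border crossed. Its window scored 4.86 and 5.36 in Brg1KD, 5.21 and 5.79 in Ino80KD, and 5.36 and 5.57 in control. The groups overlapped, and the range over the 6 libraries, 0.929 ranks, was the widest of the 9 genes. The difference from control was -0.357 for Brg1KD (SE 0.297, adjusted p = 0.732) and 0.0357 for Ino80KD (adjusted p = 1). The right part of Pds5b with Kl, chr5:150750001-151000000, was B.1.1 in both Brg1KD libraries, B.1.1 and A.2.2 in Ino80KD, and A.2.2 in both controls. This stretch was 1 rank lower in Brg1KD than in control with no overlap, and did not pass the threshold (adjusted p = 0.733). Windows of protein-coding genes on other chromosomes were compared with that of Pds5b by Euclidean distance over the 6 libraries. The nearest were those of Lypla1 (0.307), Abce1 (0.317) and Relch (0.326).

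**Figure D2:**
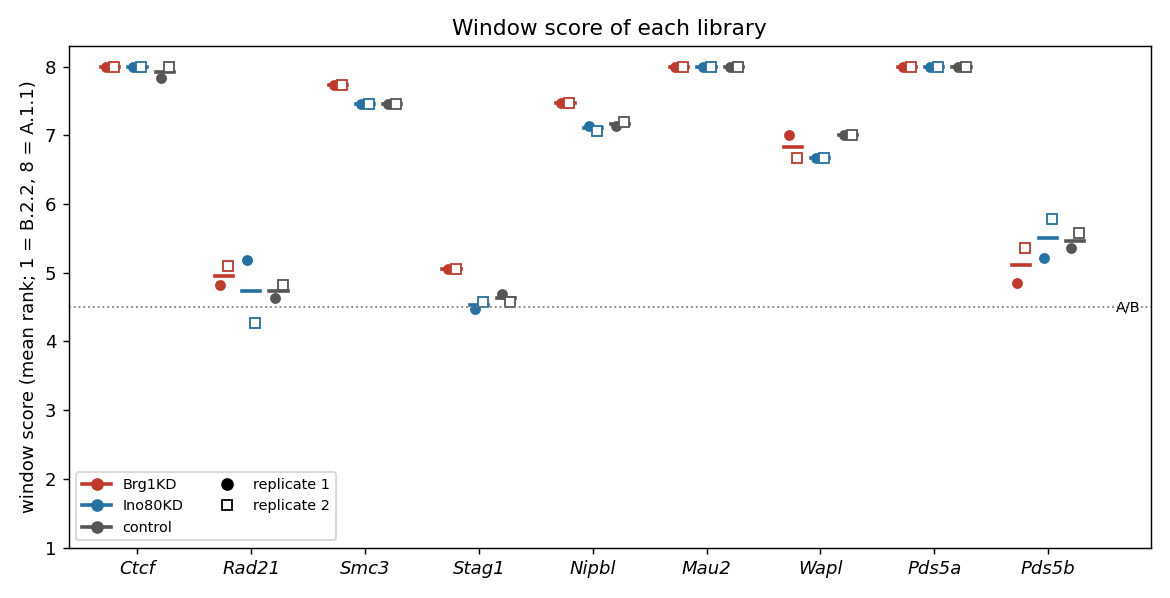
Window score (mean rank, y axis) of the 9 genes in each library, with Brg1KD left, Ino80KD in the middle and control right; circles are replicate 1, open squares replicate 2, and bars the group mean. At Smc3, Stag1 and Nipbl both Brg1KD points lie above all others, and at Mau2 and Pds5a all points lie at 8.

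Counted over the 9 genes, 1 window of 9 was called in Brg1KD against control (Smc3, towards A), where 2.47% of all gene windows were called, 1.14% towards A. In Ino80KD against control limma called none of the 9, where 1.45% of all windows were called, and also none at an unadjusted p under 0.05 or with 1 common variance. In Brg1KD against Ino80KD 1 of 9 was called (Smc3), against 1.59% of all windows and 0.894% towards A. With so few genes, a share cannot be read closely against these backgrounds. The median difference of the 9 windows was 0.0833 in Brg1KD against control, 0 in Ino80KD against control and 0.167 in Brg1KD against Ino80KD, beside 0 over all windows in each.

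Bins gave a similar picture at finer grain. In Brg1KD against control 4 of the 117 bins (3.42%) were called, 1 near Rad21 and 3 near Smc3, all towards A, where 4.83% of all bins were called and 1.53% were called towards A. In Ino80KD against control limma called 0 of 117, where 3.22% of all bins were called; none had an unadjusted p under 0.05, and none was called with 1 common variance, under which 4 had an unadjusted p below it. In Brg1KD against Ino80KD the same 4 bins were called, all towards A, where 3.96% of all bins and 1.82% towards A were called. Counted without a model, both Brg1KD libraries lay beyond both controls in 9 bins (7.69%), against 10.3% of all bins. Of these, 4 lay towards A (3.42%, against 3.13% of all bins) and the 5 of Pds5b towards B (4.27%, against 7.19%). The Ino80KD pair stood apart from the control pair in 4 bins (3.42%), those of Wapl towards B, where 6.25% of all bins stood apart and 4.5% towards B. Between the knockdowns 10 bins (8.55%) stood apart, in the windows of Rad21, Smc3, Stag1 and Nipbl, all 10 higher in Brg1KD, against 8.86% of all bins in either direction and 4.24% towards A. The neighbouring bins of a stretch share a label, so these 10 bins are 4 stretches. By these calls and counts the members' shares in either direction together were below those of all bins, some only slightly (8.55% against 8.86%). They rest on few stretches and cannot be read closely against these backgrounds. Of the 117 bins, 52 (44.4%) were already at the top rank in every library, against 9.94% of all bins. The shares towards A of Brg1KD rest on 2 stretches against control and on 4 against Ino80KD.

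The A/B border was crossed by all 4 libraries in 6 member bins (5.13%) in Brg1KD against control, 1 towards A at Rad21 and 5 towards B at Pds5b, where 1.45% of all bins crossed, 0.451% towards A and 1% towards B. In Ino80KD against control 4 bins (3.42%) crossed, all towards B at Wapl, where 0.778% of all bins crossed and 0.616% towards B. Between the knockdowns 1 bin (0.855%) crossed, the Rad21 bin towards A, against 1.31% of all bins and 0.706% towards A. Each of these is 1 stretch at the edge of an A domain, so the counts rest on 3 borders.

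**Figure D3:**
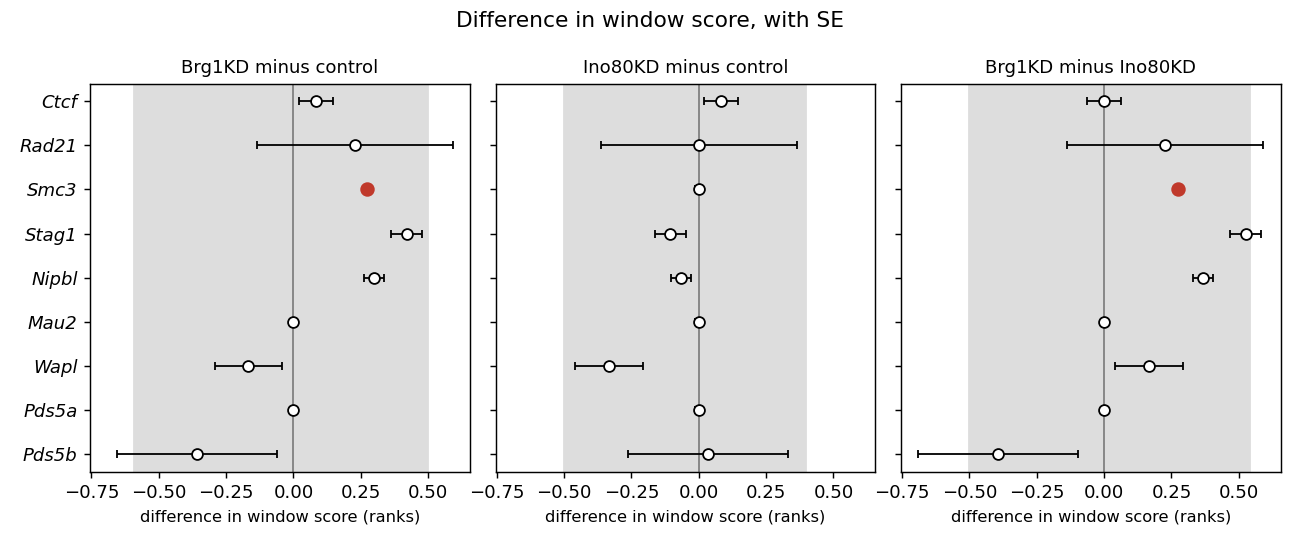
Difference in window score (x axis, ranks) of the 9 genes in the 3 comparisons, with the SE of the limma fit as bars; filled points passed an adjusted p of 0.05, and the grey band spans the 5th to 95th percentile of all gene windows. Smc3 was called in both comparisons with Brg1KD on top, with a difference of 0.273, and none of the 9 genes left the band.

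Loops were listed once a group, so their presence has no replicate check, and the deposited lists give no score for a loop. A loop was taken as matched where both anchors lay within 10 kb of those of a loop in the other list. Members with at least 1 loop were 6 of 9 in each list, where 56.9%, 54.2% and 56.7% of all genes had 1 in the Brg1KD, Ino80KD and control lists. Mau2 and Pds5b had none in any list. Member loops had a median span of 160 kb in Brg1KD, 170 kb in Ino80KD and 165 kb in control, against 250 kb over all loops in each list.

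The loops found in every list lay at the ring genes Rad21, Smc3 and Stag1, at the loader gene Nipbl and at Wapl. Smc3 had 2 loops at identical anchors in the 3 lists, a 170 kb loop from chr19:53400001-53410000 to chr19:53570001-53580000 and a 90 kb loop from chr19:53650001-53660000 to Rbm20 at chr19:53740001-53750000. The second ended at the left edge of the stretch that was A.1.2 in Brg1KD. At Stag1 an 80 kb loop joined Slc35g2 and Gm46139 at chr9:100550001-100560000 to an anchor at chr9:100630001-100640000, inside Stag1 and 3.448 kb from the start site of the promoter printed above. A longer loop around the Stag1 gene, from Il20rb at chr9:100450001-100460000 to Pccb, spanned 540 kb in Brg1KD and 550 kb in Ino80KD and control. Nipbl kept a 130 kb loop from chr15:8450001-8460000 inside the gene to chr15:8580001-8590000, and Wapl a 160 kb loop from chr14:34610001-34620000 to chr14:34770001-34780000 that enclosed the gene. At Rad21 a loop of 540 or 550 kb began at chr15:51910001-51920000 in Brg1KD and in Ino80KD, and its match in the control list began 10 kb further left, just outside the 50 kb limit. A 240 kb Rad21 loop of the Ino80KD list was likewise matched in the Brg1KD and control lists by loops beginning 10 kb further left.

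Of the 12 control loops at these genes, 3 (25.0%, exact binomial 95% interval 5.49% to 57.2%) had no match in the Brg1KD list, where 23% of all control loops had none. Against the Ino80KD list 5 of 12 (41.7%, interval 15.2% to 72.3%) had no match, where 24.9% of all control loops had none. Both intervals span the background, cover counting error only, and take as independent loops that share anchors. The control loops that match the Rad21 loops of the Ino80KD list are not among the 12. Their anchors lay just beyond the 50 kb limit, and leaving them out raises both shares. The control loops absent from Brg1KD were a 300 kb loop beside Ctcf, from Gfod2 at chr8:105720001-105730000 to Dus2 at chr8:106020001-106030000, which Ino80KD kept, a 170 kb loop from an anchor inside Rad21 at chr15:51970001-51980000, and a 460 kb loop from Il20rb to an anchor inside Stag1 at chr9:100910001-100920000. The Rad21 and Stag1 loops of these 3 were absent from Ino80KD too. Absent from Ino80KD alone were a 90 kb loop from Aard beside Rad21 at chr15:52040001-52050000, a 140 kb loop from Pccb beside Stag1 to Ppp2r3a, and a 200 kb loop from inside Nipbl at chr15:8380001-8390000.

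Of the loops listed in a knockdown, 1 of 11 in Brg1KD (9.09%) had no match in control, where 24.4% of all Brg1KD loops had none, and 0 of 9 in Ino80KD, where 19% had none and the exact interval reaches 33.6%. The loop seen in Brg1KD alone was at Pds5a, 160 kb from Smim14 and Ube2k at chr5:65530001-65540000 to chr5:65690001-65700000, the anchor that holds the Pds5a start site printed above. The labels around it were A.1.1 in every library.

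**Figure D4:**
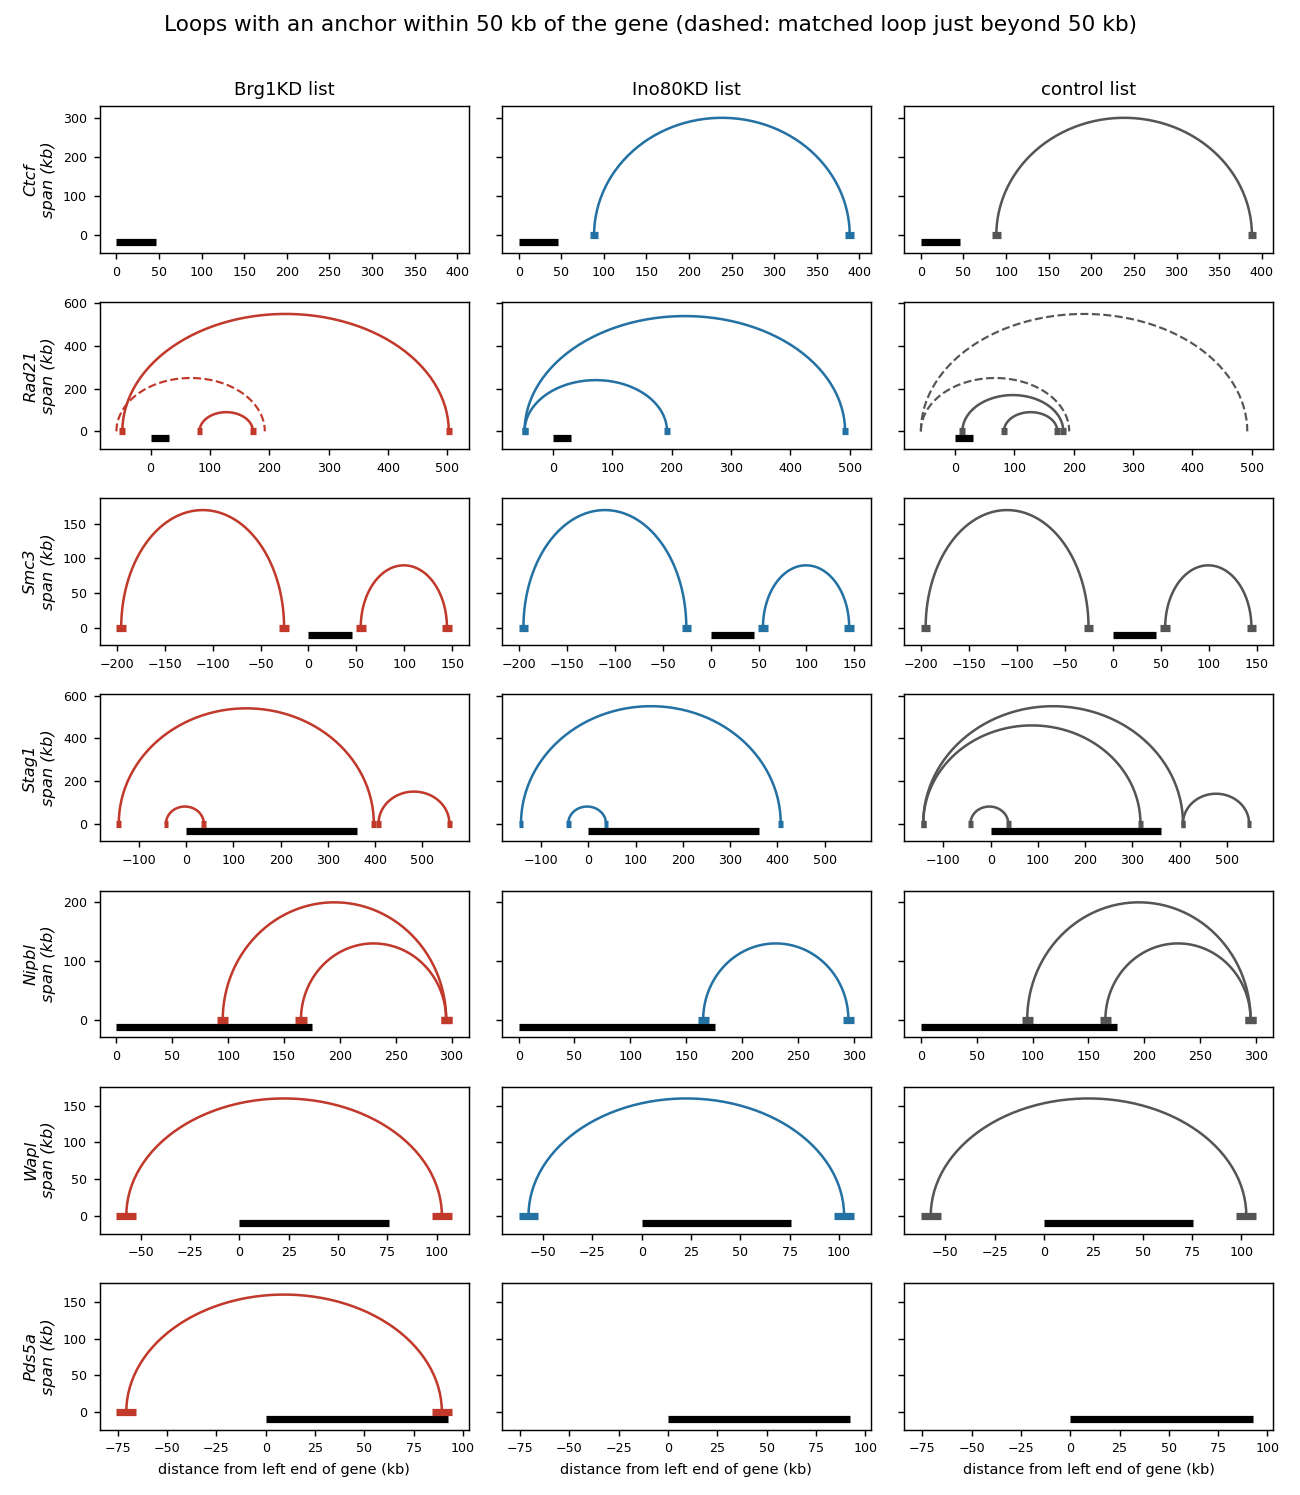
Loops of the 7 genes with any, drawn as arcs between their 10 kb anchors (x axis, kb from the left end of the gene, black bar; arc height is the span in kb) in the Brg1KD list left, Ino80KD in the middle and control right; dashed arcs are matched loops whose anchor lies just beyond 50 kb. Smc3 and Wapl show the same arcs in all 3 lists, Ctcf has none in Brg1KD, and Pds5a has 1 in Brg1KD alone.

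Other genes of chromosome architecture numbered 36, of which 33 autosomal ones were fitted; the X-linked Smc1a, Stag2 and Hdac8 were not analysed here. Limma called none of the 33 in any of the 3 comparisons, where 2.47%, 1.45% and 1.59% of all gene windows were called. At an unadjusted p under 0.05 there were 1 in Brg1KD against control, 3 in Ino80KD against control and 4 in Brg1KD against Ino80KD. Over all 20470 gene windows 2069, 1368 and 1797 were under it, in the same order. With 1 common variance none of the 33 was called either. Their median control window score was 6.18 and their median differences were -0.0417, 0 and 0 in the same order of comparisons. The windows of Cdca5, Maz and Ncapd2 were A.1.1 throughout, as were those of Mau2 and Pds5a. The differences furthest from 0 were -0.727 for Esco2, a cohesin acetyltransferase, in Brg1KD against control (adjusted p = 0.489), -0.833 for Smc5 in Ino80KD against control (adjusted p = 0.711) and 0.773 for Nsmce3 between the knockdowns, and Smc5 and Nsmce3 both encode parts of the SMC5/6 complex.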

How the data were processed

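Hi-C was measured in 6 libraries of E14 cells. The authors deposited, per library, subcompartment segments with a label and a score in 8 equal steps within that library, and 1 loop list a group, named as merged, which was taken as pooled from both libraries. Per the submitters' processing notes, BWA, SAMtools, Juicer 2.0, HOMER and bedtools were used on mm10; the callers and thresholds are not given in the sources used here.

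Scores were turned into ranks per 50 kb bin and averaged over windows of 5 bins or more with Python 3.11.15 and pandas 2.3.3. Windows and bins were fitted with limma 3.58.1 in R 4.3.3 (all 6 libraries, group only, Benjamini-Hochberg, threshold 0.05). On simulated data the fit was checked for returning a shift of known size. The simulation drew normal noise with each feature's own spread, so it cannot vouch for p-values on ranks with few steps. An exact permutation of 2 against 2 cannot go below p = 0.333. Replicate numbers pair libraries because the labels give them as batches; deviations of same-numbered libraries correlated at 0.107 to 0.152 over gene windows. All 9 members are named, and other machinery genes where the difference was among the largest of a fixed list. Members and lists were chosen with earlier results of these data known. Alternatives were the replicate block, 1 common variance, leaving out a library, other windows, bins, loop distances and matches. Genes and promoters came from RefSeq, GRCm38.p6. Segments cover autosomes only, and no genome sequence was used.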

Additional observations from a re-analysis of the deposited data

Results flagged for a closer look

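Between the knockdowns 3 results at these genes were flagged, where 1.59% of all gene windows and 3.96% of all bins were called. The first and the second are the same difference, as the Smc3 window differed only in the stretch given second. The Smc3 window was 0.273 ranks higher in Brg1KD than in Ino80KD (limma adjusted p = 0.00732), with both libraries of one beyond both of the other. The stretch of the Smc3 window over Rbm20 and Pdcd4 was 1 rank higher in Brg1KD (adjusted p = 9.78e-08). The bin at the right border of the Rad21 domain was 5.5 ranks higher in Brg1KD (adjusted p = 0.0325). At the first and the second, libraries of the same group were identical, so their p-values rest on spread borrowed from other windows or bins. The first and the third lost their call with batch as a replicate block (adjusted p = 0.0737 and 0.0532), and the first and the second with 1 common variance (0.939 and 0.269). With 100 kb bins the third was 2.5 ranks higher and not called (adjusted p = 0.133). The third also lost its call when any 1 of the 6 libraries was left out, with differences of 5 to 6 ranks.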

How the results depend on the processing

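Of 351 values at single genes or stretches under the alternatives, 313 kept their side of the threshold with no change of sign, 25 lost the call, 6 gained one and 7 changed sign, none of these past the threshold under either setting. The last were Ctcf in both knockdowns against control with windows of 500 kb (-0.136 each), Nipbl in Ino80KD against control with windows of 100 kb (0.0556), Rad21 between the knockdowns without Ino80KD replicate 2 (-0.227, with a range of -0.227 to 0.682 when 1 library is left out), and Pds5b in Ino80KD against control with windows of 500 kb (-0.0208), without Ino80KD replicate 2 (-0.25) and without control replicate 1 (-0.0714, with a range of -0.25 to 0.321 when 1 library is left out). The gained calls were at Ctcf and Wapl with 1 library left out, where no spread within groups remained. Counts over all features moved more. Called gene windows numbered 505 in Brg1KD against control, 297 in Ino80KD against control and 326 between the knockdowns. With the replicate block they were 253, 93 and 0, the last with 1999 at an unadjusted p under 0.05, and the pairing changed the member calls of Smc3 and Rad21 given above and no other. With windows of 500 kb they were 32, 21 and 0 (2331 unadjusted), and with windows of 100 kb 498 between the knockdowns. Without 1 library they ranged over 852 to 1281, 464 to 1113 and 709 to 1125. Called bins (2304, 1538 and 1890) were 1052, 690 and 885 with 100 kb bins, of which there are fewer, and 326 in Ino80KD against control and 515 between the knockdowns with 1 common variance. Without 1 library they ranged over 3851 to 5499, 2468 to 4707 and 3289 to 4976. Member bins with groups apart (9, 4 and 10) ranged over 10 to 23, 7 to 14 and 16 to 25 without 1 library, which leaves a group with 1 library to be beyond; this count was added after seeing the data. Member loops (11 in Brg1KD, 9 in Ino80KD, 12 in control) were 7 and 5 for the knockdowns within 25 kb, and 19, 15 and 20 within 100 kb. The cause of these movements was not tested, and read depth is unknown.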
